A study of Mus musculus with 9 samples.

Results

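The nuclear genes of oxidative phosphorylation were followed in mouse liver in the absence of HP1α, alone or together with HP1γ or HP1β. Members were the genes whose symbol starts with Nduf, with Sdh and then a letter from a to d, with Uqcr, with Atp5, or with Cox and then a digit from 4 to 8, apart from symbols that hold -ps. The rule found 93 genes of the 22701 in the table. They comprised 36 subunits of complex I, 4 of complex II, 8 of complex III, 11 of complex IV and 15 of complex V. The others were 7 genes named as complex IV isoforms or relatives, 7 complex I assembly factors named Ndufaf, 2 complex II assembly factors named Sdhaf, and Atp5s, Atp5sl and Atp5l2. RNA came from livers of mice aged 5 weeks on a mixed background labelled C57BL/6 and 129svPas. The groups were HP1ag_KO (HP1a-/- with HP1g deleted in liver, 3 livers), HP1ab_KO (HP1a-/- with HP1b deleted in liver, 1 liver), HP1a_KO (HP1a-/-, 2 livers) and WT (3 livers). All 6 mutant livers therefore lack HP1α, and the transgene or driver behind the deletions in liver is not given in the sources used here. HP1 proteins bind methylated histone H3 in heterochromatin, and the series title concerns their role as tumour suppressors in liver.

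Oxidative phosphorylation makes most of the ATP of a resting hepatocyte. Complexes I and II take electrons from NADH and succinate, complex III passes them from coenzyme Q to cytochrome c, and complex IV hands them to oxygen. Complexes I, III and IV pump protons across the inner mitochondrial membrane, and complex V, the ATP synthase, uses their return to form ATP. Complex II is built from nuclear genes alone, while the other complexes join nuclear subunits to a few encoded by mitochondrial DNA, so transcripts of both genomes are needed. Assembly factors such as the Ndufaf proteins help build a complex without staying in it.

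Values are read counts divided by a size factor per library, called normalised reads here, and differences are on the log2(value + 1) scale. The shallowest library, HP1a_KO replicate 1, had 16266423 reads assigned to genes, and the other 8 had 26375545 to 36161177. Of the 93 members, 88 averaged at least 10 across the 9 libraries and were tested among 13845 genes with limma. The members together took 1.06 to 1.10% of the normalised reads in HP1ag_KO, 1.04% in HP1ab_KO, 0.953 to 0.986% in HP1a_KO and 1.05 to 1.12% in WT. Cbx5, which encodes HP1α, had 663 to 813 normalised reads in HP1ag_KO, 663 in HP1ab_KO and 501 to 576 in HP1a_KO, against 997 to 1542 in WT. Cbx3, which encodes HP1γ, had 326 to 380 in HP1ag_KO against 536 to 641 in WT. Cbx1, which encodes HP1β, had 217 in HP1ab_KO against 803 to 1082 in WT, and HP1a_KO replicate 1 read 457. Hepatocyte markers (5 of 6 listed genes found, Alb among them) summed to 2960730 to 3144850 in HP1ag_KO, 2921690 in HP1ab_KO, 2701800 to 3143330 in HP1a_KO and 2329670 to 3105660 in WT. Their median log2 difference from WT was -0.04 in HP1ag_KO, -0.10 in HP1ab_KO and -0.21 in HP1a_KO. In the same order, 4, 3 and 3 of the 5 were lower and 1, 2 and 2 higher. The labels do not say whether the animals came from separate litters, so p-values measure the spread between these samples.

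In WT liver the subunit transcripts were abundant, and their level differed between the complexes. Levels between genes are given as normalised reads per kilobase of transcript. The median level per kilobase in WT was 2136 for complex I subunits, 4238 for complex II, 4843 for complex III, 6980 for complex IV and 5519 for complex V. Complex I assembly factors had a median of 309 per kilobase.

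Within complex V, Atp5b, the catalytic β subunit of the ATP synthase, had the highest level of all members at 19316 ± 583 per kilobase (SD, n = 3). Its partner in the catalytic head, the α subunit Atp5a1, reached 12347 ± 918 per kilobase. Atp5g2, 1 of the 3 genes for subunit c of the membrane rotor, was the lowest of complex V at 1349 ± 109. In complex IV, Ndufa4, once counted with complex I and now placed in complex IV, led at 14411 ± 747, and Cox5b was lowest at 4472 ± 126 per kilobase. Cox4i1, a regulatory subunit of complex IV, had 10231 ± 394 per kilobase. In complex III, Uqcrh, the hinge protein, led at 8881 ± 946, and the core protein Uqcrc2 was lowest at 3645 ± 191. In complex II, the membrane anchor Sdhd led at 4804 ± 270, and the other anchor, Sdhc, was lowest at 1755 ± 97.4. In complex I, the accessory subunit Ndufa6 was highest at 7402 ± 1496, and Ndufb2 was lowest at 516 ± 42.3. The lengths of Ndufb2, Ndufab1 and Atp5g1 vary widely between annotated transcripts, so their levels per kilobase are uncertain.

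**Figure D1:**
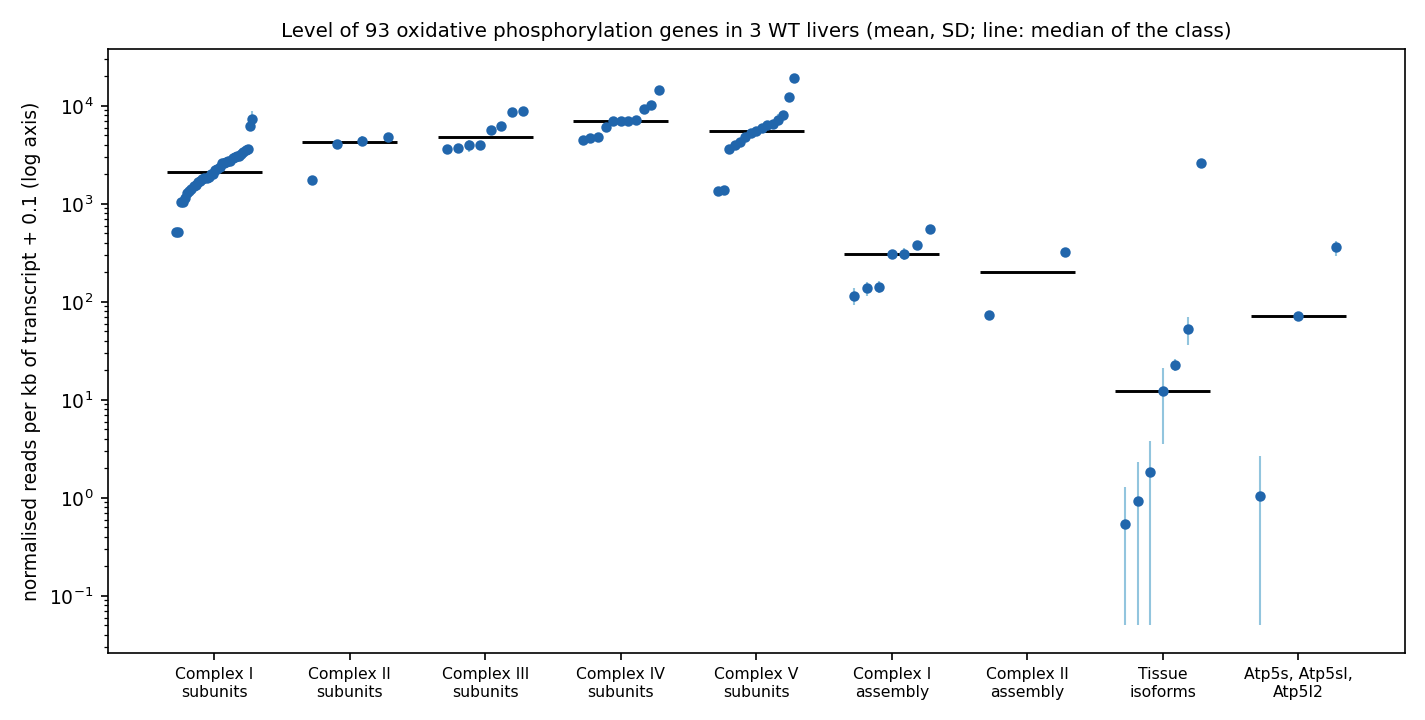
Level of each of the 93 genes in WT liver as normalised reads per kilobase plus 0.1, on a log axis, grouped by complex; points are means of 3 livers, error bars are SD and end at 0.05 where they would reach lower, and lines are class medians. Class medians of the 5 complexes lie between 2136 and 6980, and the complex I assembly factors lie below nearly all subunits.

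Isoforms used by muscle and other tissues were nearly silent. Cox6a2 and Cox8b, the isoforms of heart and skeletal muscle, had 13 and 1 reads in all 9 libraries together. Cox4i2, a lung isoform that responds to oxygen, had 16 reads, and Cox6b2, the testis isoform, had 40 reads. In no library did Cox4i2 exceed 12.6 per kilobase, while Cox4i1 ran from 9350 to 10743 per kilobase. Cox7a1, the muscle isoform, was measurable at 40.5 to 76.4 per kilobase, against 4974 to 6433 for its liver counterpart Cox7a2. Ndufa4l2, which is induced by hypoxia, ran from 18.2 to 37.2 per kilobase, against 11759 to 15266 for Ndufa4. Cox7a2l, a relative drawn in the same class, was not silent, with 2642 per kilobase in WT. Markers of skeletal and cardiac muscle summed to 4.49 to 10.0 normalised reads in HP1ag_KO, 1.60 in HP1ab_KO, 3.67 to 5.16 in HP1a_KO and 4.45 to 6.67 in WT. Atp5l2, named as a pseudogene in the annotation, had 2 reads in all. These 4 isoforms and Atp5l2 are the 5 members that were not tested, with at most 8 reads in any library, and no fold is given for them.

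Subunit c of the ATP synthase is made from Atp5g1, Atp5g2 and Atp5g3, which encode the same mature protein behind different import signals. Atp5g3 made up 70.1 to 71.4% of the level per kilobase of the 3 genes in HP1ag_KO, 73.1% in HP1ab_KO, 69.1 to 76.0% in HP1a_KO and 73.4 to 76.6% in WT. The HP1ag_KO shares lay below the WT shares without overlap, and the HP1a_KO shares spanned both. The shares depend on the length of Atp5g1, which is uncertain.

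The members varied little between livers. The median SD within a group was 0.10 on the log2 scale over the 88 members, 0.15 over the 3750 genes averaging 1000 or more, and 0.22 over all genes tested. The steadiest was Ndufa10, a complex I subunit, whose highest library was 1.11 times its lowest. Among the tested members the widest span belonged to Ndufa4l2, at 2.04 times.

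As examples of how the upstream sequence differs between members, 4 promoters are shown from RefSeq (GRCm38.p6). Each is the 150 bases before the RefSeq start. The gene spans given below are from GENCODE M21, and the Cox7a2 and Uqcrfs1 pieces overlap those spans. Of the 81 member promoters, 64 had a RefSeq start within 100 bases of the GENCODE gene start. Sdhd, Cox7a2 and Uqcrfs1 had the smallest p-values of HP1ag_KO against WT, and Ndufaf4 carries a match to the motif of NRF1, the factor named for driving respiratory genes. Capitals mark exact matches, on either strand, to GCGCATGCG (NRF1), CCGGAAG (ETS factors such as GABPA), AAGATGGCG (YY1) or GGGCGG (SP1). The pieces are chr9:50603850-50603999 (minus strand) for Sdhd, chr9:79759854-79760003 (minus) for Cox7a2, chr13:30545317-30545466 (minus) for Uqcrfs1 and chr4:24897933-24898082 (plus) for Ndufaf4.
Sdhd: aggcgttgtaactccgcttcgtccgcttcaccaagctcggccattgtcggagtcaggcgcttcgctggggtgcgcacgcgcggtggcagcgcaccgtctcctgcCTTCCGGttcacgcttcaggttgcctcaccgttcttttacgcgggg
Cox7a2: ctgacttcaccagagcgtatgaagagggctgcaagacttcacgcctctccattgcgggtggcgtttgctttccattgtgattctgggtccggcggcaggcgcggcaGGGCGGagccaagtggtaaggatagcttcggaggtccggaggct
Uqcrfs1: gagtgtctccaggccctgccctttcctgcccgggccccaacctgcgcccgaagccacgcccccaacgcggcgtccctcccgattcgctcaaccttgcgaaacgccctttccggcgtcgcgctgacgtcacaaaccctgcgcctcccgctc
Ndufaf4: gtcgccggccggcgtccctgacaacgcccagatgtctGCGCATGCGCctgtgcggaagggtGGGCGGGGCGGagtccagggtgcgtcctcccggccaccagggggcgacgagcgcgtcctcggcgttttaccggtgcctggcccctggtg
The Sdhd piece holds 1 ETS match, 46 bases before the start, on the opposite strand, and an SP1 match that runs across the start is not in capitals. The Cox7a2 piece holds 1 SP1 match, the Uqcrfs1 piece none, and the Ndufaf4 piece an NRF1 match on both strands, which overlap, and 2 overlapping SP1 matches. Over the 300 bases around the start, 81 promoters of 75 members were in the table. The NRF1 letters were in 12.3% of member promoters, against 3.43% of those of genes tested and 1.75% of all 32851 promoters. The YY1 letters were in 11.1% of member promoters, against 2.83% of those of genes tested and 1.4% of all. ETS letters were in 23.5% of member promoters, against 16.6% of those of genes tested and 8.86% of all, and SP1 letters in 42.0%, against 59.8% and 35.7%. A match is a string of letters and shows no binding, and no comparison below was read against it.

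Against WT, 0 of the 88 tested members passed an adjusted p of 0.05 in HP1ag_KO livers, and the differences were small. The median log2 difference was -0.05 over the members and -0.01 over all genes, with 23 members higher and 65 lower. Over the 3750 genes averaging 1000 or more it was -0.06, so the members did not lie below genes of high level. With totals made equal the members' median was 0.00, with 45 higher and 43 lower, and that of all genes 0.04, so the counts depend on the scaling while the gap between both medians stayed at -0.04. The members' median was -0.09 without HP1ag_KO replicate 2, -0.03 without HP1ag_KO replicate 1 and -0.03 without WT replicate 3. A fit with a term for neighbouring animal numbers used only 2 pairs of an HP1ag_KO and a WT liver. There the members' median was -0.11, with 10 members higher and 78 lower. That fit leaves out HP1ag_KO replicate 2 and WT replicate 1, so the pairing and the choice of livers cannot be told apart. Without WT replicate 1 alone the members' median was -0.07. limma called 0% of all genes, and DESeq2 called 0.715% of them (99 genes) and 0 members. At an unadjusted p under 0.05, limma marked 0 members higher and 4 lower, against 3.84% of all genes higher and 3.74% lower. The smallest adjusted p of a member was 0.569 by limma, 0.569 by edgeR and 0.293 by DESeq2, each for Sdhd. The 95% interval lay within 0.5 log2 units of 0 for 79 of 88 members (89.8%), against 41.1% of all genes and 65.7% of genes averaging 1000 or more. In whole liver, fewer cells of a type and less RNA per cell cannot be told apart.

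Sdhd, the small anchor of succinate dehydrogenase (chr9:50596357-50603812, mm10), had 4642, 4865 and 4766 normalised reads in HP1ag_KO, against 5546, 6195 and 5999 in WT. The 3 HP1ag_KO livers lay below the 3 WT livers. The log2 difference was -0.31 (SE 0.10, 95% interval -0.53 to -0.09, adjusted p = 0.569 by limma). The catalytic subunit Sdha had 10254, 12588 and 10471 in HP1ag_KO, against 14377, 11800 and 12351 in WT, and the groups overlapped (log2 difference -0.21, interval -0.51 to 0.08). The iron-sulphur subunit Sdhb differed by -0.04 (interval -0.28 to 0.20).

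Cox7a2, the liver form of subunit 7a of complex IV (chr9:79755361-79759878), had 3278, 3421 and 3431 in HP1ag_KO, against 3725, 4136 and 4239 in WT. The groups did not overlap, and the log2 difference was -0.25 (SE 0.08, interval -0.44 to -0.06, adjusted p = 0.584 by limma). Uqcrfs1, the Rieske iron-sulphur protein of complex III (chr13:30540308-30545362), had 4782, 4689 and 4726 in HP1ag_KO, against 5301, 5452 and 5642 in WT. These groups were also apart, at -0.21 (SE 0.08, interval -0.40 to -0.02, adjusted p = 0.634 by limma). Ndufab1, the mitochondrial acyl carrier protein found in complex I, had 1016, 1125 and 1049 in HP1ag_KO, against 1404, 1262 and 1152 in WT. Its highest HP1ag_KO liver was close to its lowest WT liver, and the log2 difference was -0.26 (SE 0.11). Sdhd, Cox7a2, Uqcrfs1 and Ndufab1 were picked for the smallest p among the lower members, which favours such separation. Over all genes tested, Sdhd, Cox7a2 and Uqcrfs1 ranked 270, 345 and 804 by limma p.

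The highest log2 difference belonged to Ndufa4l2, at 0.27 with an interval of -0.45 to 0.99. Uqcrb, a complex III subunit that binds coenzyme Q, had 3709, 3991 and 3534 in HP1ag_KO, against 3079, 3242 and 3643 in WT. A single WT liver lay above 1 HP1ag_KO liver, and the difference was 0.17 (interval -0.04 to 0.39). Ndufa6 (0.17), Atp5h, a subunit of the stator of the ATP synthase (0.10), and Ndufa12 (0.09) had intervals that crossed 0. The core subunits Ndufs1 and Ndufv1 of complex I differed by -0.11 and -0.02, Uqcrc1 by -0.15, Cox4i1 by -0.09, Cox5a by -0.11, and Atp5a1 and Atp5b by -0.05 each, all with intervals that crossed 0.

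All libraries of a group lay below all WT libraries for 11 members in HP1ag_KO and above them for 0, which is 12.5% and 0% of the 88 tested. Over all genes, 7.05% lay below without overlap and 6.46% above. Among the 11 were Ndufab1, Ndufb11, Ndufs1, Sdhd, Uqcrc1, Uqcrc2, Uqcrfs1, Cox7a2, Atp5g3 and Atp5l. With TMM scaling 10 members lay below and 1 above, against 5.93% and 7.35% of all genes. With equal totals 6 lay below and 5 above, against 4.12% and 8.83% of all genes.

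**Figure D2:**
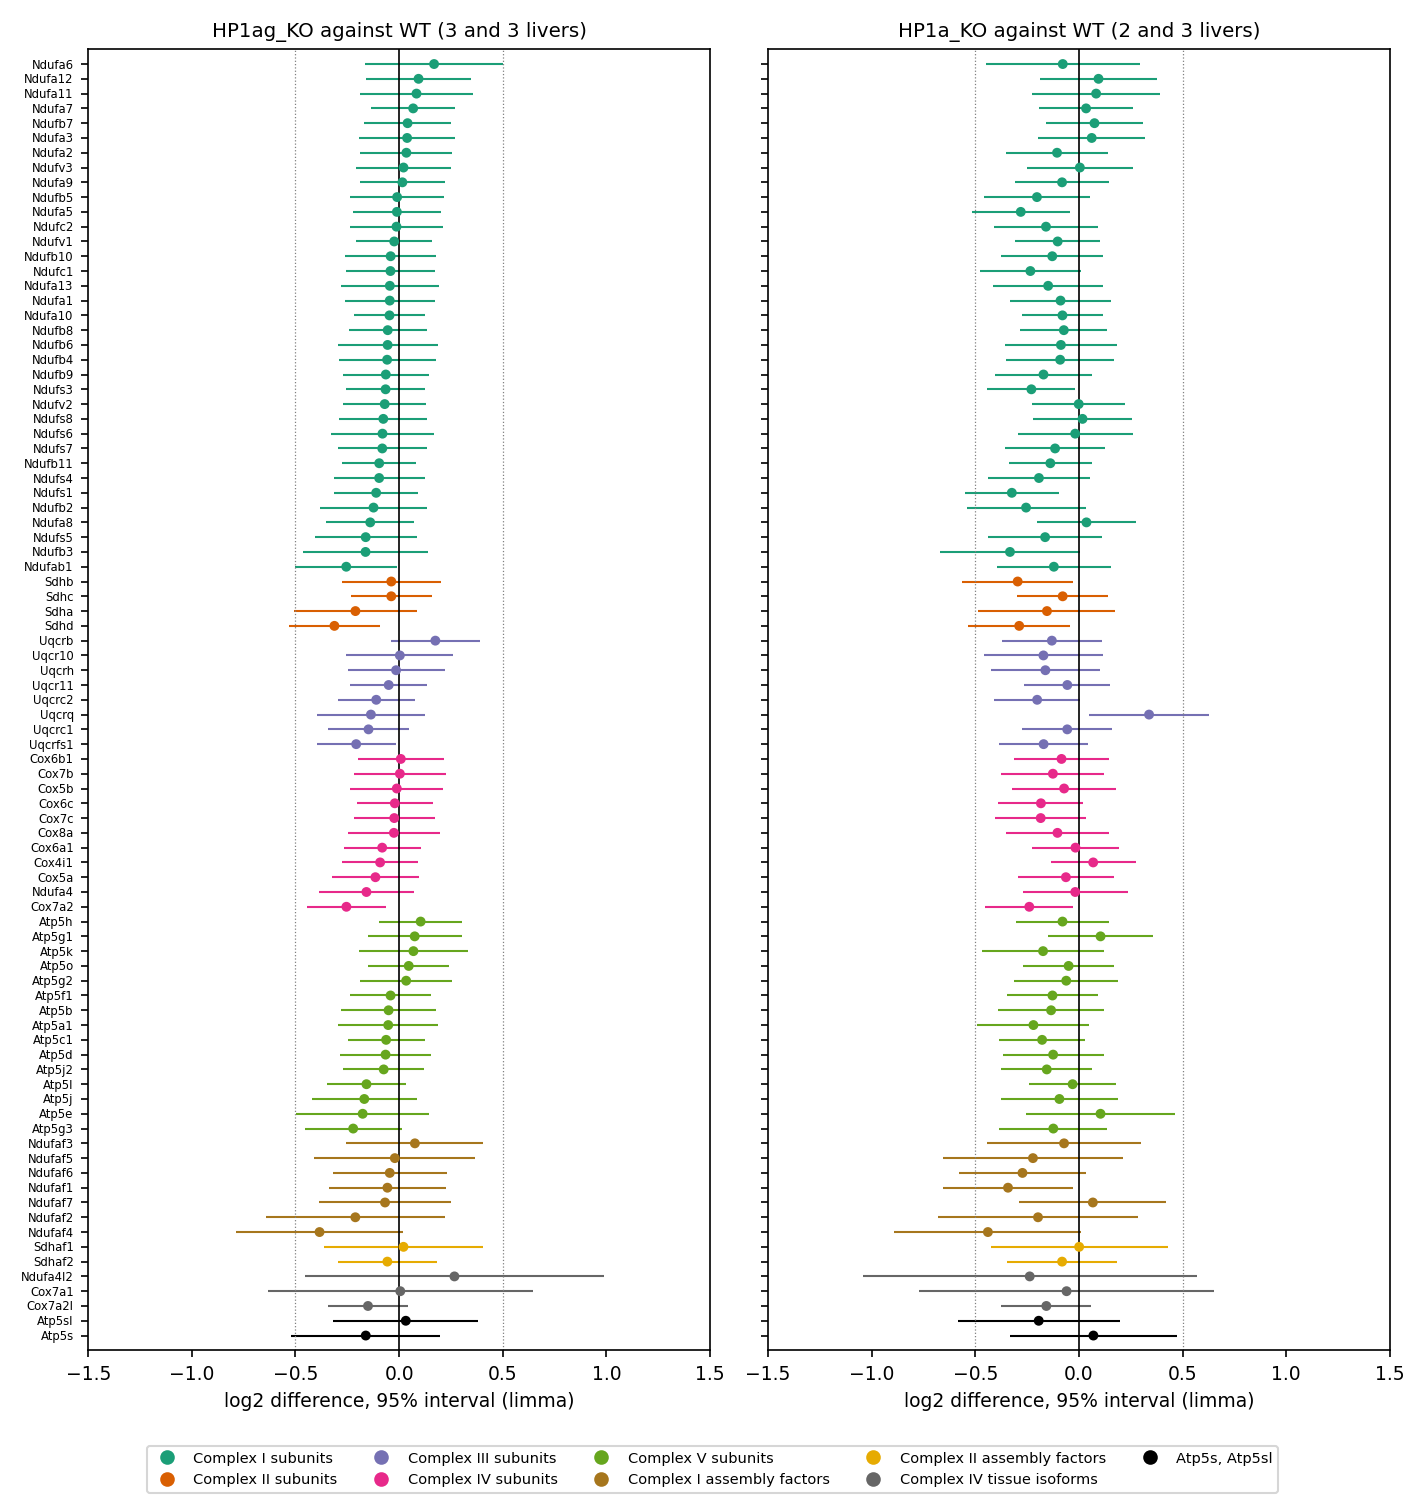
Log2 difference of 87 of the 88 tested members (points) with its 95% limma interval (lines), for HP1ag_KO against WT on the left and HP1a_KO against WT on the right, ordered by class; dotted lines mark 0.5 log2 units either side of 0. In the left panel 78 of 87 intervals lie between the dotted lines, in the right panel 72 of 87, and 72 of the points on the right lie below 0.

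HP1a_KO livers showed the widest lean of the members below WT, again without a called gene. Both HP1a_KO animals carry neighbouring numbers, and the labels do not say whether they share a litter. Anything the pair shares cannot be told apart from genotype, here or in HP1ag_KO against HP1a_KO. The median log2 difference was -0.11 over the members and -0.00 over all genes, with 15 members higher and 73 lower. Over genes averaging 1000 or more it was -0.01. Every class of subunit had a median below 0, from -0.08 in complex IV to -0.22 in complex II, with complex I at -0.10, complex III at -0.15 and complex V at -0.12. With equal totals the members' median was -0.15 and that of all genes -0.04, and without HP1a_KO replicate 1, the shallow library, the members' median was -0.08. limma called 0% of all genes, and DESeq2 called 0.643% (89 genes) and 0 members. At an unadjusted p under 0.05, limma marked 1 member higher and 7 lower, against 5.48% and 4.66% of all genes. The smallest adjusted p was that of Ndufs1, at 0.432 by limma, 0.468 by edgeR and 0.202 by DESeq2.

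Ndufs1, the largest core subunit of complex I, which carries iron-sulphur clusters (chr1:63143596-63176833, mm10), had 3580 and 4060 normalised reads in HP1a_KO, against 4559, 4690 and 5081 in WT. Both HP1a_KO livers lay below all WT livers, and the log2 difference was -0.32 (SE 0.10, interval -0.55 to -0.10). Ndufa5, an accessory subunit of the same complex, had 802 and 865 in HP1a_KO, against 999, 1057 and 980 in WT, a difference of -0.28 (SE 0.10). Sdhd had 4424 and 5290 in HP1a_KO, below the 3 WT livers given above, at -0.29 (interval -0.53 to -0.04). Sdhb had 3653 and 3858 in HP1a_KO, against 4830, 4136 and 4898 in WT, at -0.30 (interval -0.56 to -0.03). Cox7a2 had 3367 and 3456 in HP1a_KO, at -0.24 (interval -0.45 to -0.03). In these 5 members both HP1a_KO livers were below every WT liver, and their adjusted p-values ran from 0.432 to 0.471 by limma. They were picked for the smallest p among the lower members, which favours such separation. Of all genes, 15.1% lay below WT in the same way. The comparison shares its WT livers with that of HP1ag_KO, so the like values of Sdhd and Cox7a2 in both are not separate evidence.

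Uqcrq, a small subunit of complex III (chr11:53427922-53430831), was on the other side of WT. It had 2459 and 2552 in HP1a_KO, against 2303, 1909 and 1767 in WT, with no overlap, at 0.34 (SE 0.13, interval 0.05 to 0.63, adjusted p = 0.457 by limma). WT replicate 1 lay nearer to the HP1a_KO livers than the other WT livers did. Atp5g1 (0.10), Ndufa12 (0.09), Ndufb7 (0.08) and Cox4i1 (0.07) followed, with intervals that crossed 0. The core subunits differed by -0.10 in Ndufv1, -0.15 in Sdha, -0.06 in Uqcrc1, -0.17 in Uqcrfs1, -0.06 in Cox5a, -0.22 in Atp5a1 and -0.13 in Atp5b.

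In HP1a_KO, 34 members (38.6%) lay below all WT livers and 3 (3.41%), Cox4i1, Ndufa11 and Uqcrq, lay above them. Over all genes the shares were 15.1% below and 14.7% above. With equal totals 43 members lay below and 1 above, against 19.4% and 11.5% of all genes. Without HP1a_KO replicate 1 the counts were 44 and 7, against 24.8% and 24.2%. With TMM scaling they were 34 and 4, against 14.6% and 15.3%.

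**Figure D3:**
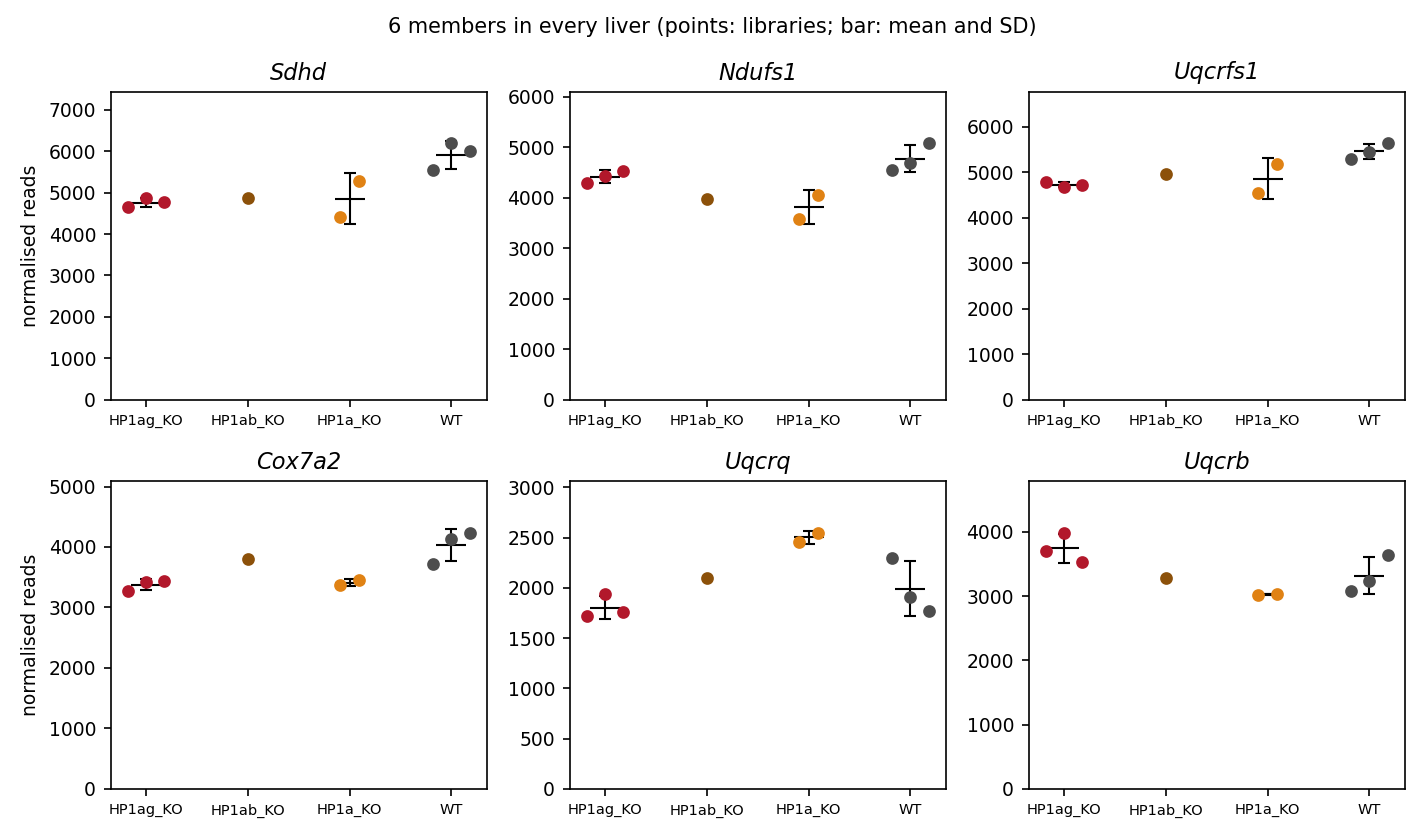
Normalised reads of Sdhd, Ndufs1, Uqcrfs1, Cox7a2, Uqcrq and Uqcrb in each liver (points), with group means and SD (bars, for groups with 2 or 3 livers); each vertical axis starts at 0. Sdhd, Ndufs1 and Uqcrfs1 are lower in each mutant library than in every WT library, Uqcrq is highest in the 2 HP1a_KO livers, and Uqcrb is low in the same livers.

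Markers of other cell types also differed between livers. Kupffer cell markers (7 of 8 listed genes found and tested, none at 0) summed to 11629 to 16820 in HP1ag_KO, 17774 in HP1ab_KO, 15736 to 18301 in HP1a_KO and 10492 to 12766 in WT. Their median log2 difference was 0.21 in HP1ag_KO, 0.51 in HP1ab_KO and 0.54 in HP1a_KO, against WT. Stellate cell markers (7 of 7) summed to 14711 to 16624 in HP1ag_KO, 18062 in HP1ab_KO, 17978 to 19441 in HP1a_KO and 11070 to 16700 in WT. Erythroid markers (8 of 8 found, 7 tested) summed to 5408 to 9322 in HP1ag_KO, 20041 in HP1ab_KO, 11318 to 13314 in HP1a_KO and 7335 to 18204 in WT. Endothelial markers (6 of 6) summed to 10290 to 11330 in HP1ag_KO, 11958 in HP1ab_KO, 10225 to 11427 in HP1a_KO and 10055 to 11578 in WT. Cholangiocyte markers (5 of 5) summed to 854 to 1181 in HP1ag_KO, 896 in HP1ab_KO, 673 to 892 in HP1a_KO and 628 to 1628 in WT. Brown fat markers rested on Elovl3 (2 of 3 listed genes found, 1 tested), and their sum was 365 to 17453 in HP1ag_KO, 2802 in HP1ab_KO, 958 to 2598 in HP1a_KO and 2404 to 16867 in WT. The part of these cells in the members' values was not tested.

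The single HP1ab_KO liver gave a median log2 difference from WT of -0.05 over the members and -0.00 over all genes. Of the members, 24 were higher and 64 lower. Genes averaging 1000 or more had a median of -0.03. For the members, leaving out WT replicate 3 gave -0.02, and leaving out WT replicate 1 gave -0.08. This library has no replicate, and the fit takes it to vary like the other groups. limma called 0% of all genes and 0 members. At an unadjusted p under 0.05 it marked 0 members in either direction, against 2.05% of all genes higher and 1.65% lower. DESeq2 called 0.0795% (11 genes) and 0 members. Ndufb3, an accessory subunit of complex I, had 776 in HP1ab_KO, against 993, 935 and 1159 in WT, at -0.40 (interval -0.83 to 0.02). Ndufs1 had 3983 (-0.26, interval -0.55 to 0.03) and Sdhd 4866 (-0.28, interval -0.59 to 0.03), each below all 3 WT livers. Such separation is common for a single library: 3440 of the 13845 genes tested lay below all WT livers and 3130 above. Of the 88 members, 30 lay below and 13 above. The named members were also picked for a small p, which favours it. Cox8a and Ndufb10 differed by -0.19 and -0.18. On the other side, Sdhaf1, an assembly factor that helps load iron-sulphur clusters into Sdhb, had 253 in HP1ab_KO, against 173, 204 and 175 in WT, at 0.46 (interval -0.08 to 1.0). Cox7a1 had 33.6, against 17.8, 31.4 and 20.6 in WT, at 0.55 (interval -0.35 to 1.45). Ndufc2 (0.14), Cox6c (0.13) and Atp5g1 (0.10) followed.

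HP1ag_KO was also set against HP1a_KO, which asks what deletion of HP1γ in liver adds to the loss of HP1α. The median log2 difference was 0.06 over the members and -0.02 over all genes, with 62 members higher and 26 lower. Genes averaging 1000 or more had a median of -0.07. With equal totals the median was 0.15 over the members, with 78 higher and 10 lower, and 0.08 over all genes. Without HP1ag_KO replicate 2 the members' median was 0.02, and without HP1a_KO replicate 2 it was 0.09. limma called 0% of all genes, and DESeq2 called 3.32% (459 genes) and 0 members. At an unadjusted p under 0.05, limma marked 2 members higher and 1 lower, against 7.8% and 8.38% of all genes.

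Over the 5 comparisons, Uqcrq had the smallest adjusted p of a tested member, at 0.156 by limma, 0.169 by edgeR and 0.0590 by DESeq2. It had 1716, 1936 and 1762 normalised reads in HP1ag_KO, against 2459 and 2552 in HP1a_KO. The groups were well apart, at -0.47 (SE 0.13, interval -0.76 to -0.18), while HP1ag_KO overlapped WT (-0.14, interval -0.40 to 0.12). Uqcrb, in the same complex, showed the opposite order, with 3709, 3991 and 3534 in HP1ag_KO, against 3018 and 3034 in HP1a_KO. Its difference was 0.31 (SE 0.10, interval 0.07 to 0.55, adjusted p = 0.219 by limma). Ndufa5 had 984, 1091 and 942 in HP1ag_KO, above both HP1a_KO livers, at 0.27 (interval 0.03 to 0.51). Sdhb (0.26), Ndufs1 (0.21) and the complex I assembly factor Ndufaf1 (0.29) had intervals that crossed 0. So did the lower members Atp5e, the ε subunit of the ATP synthase (-0.28), Ndufa8 (-0.18), Cox4i1 (-0.16) and Atp5l (-0.13).

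Between these groups 26 members (29.5%) lay above and 6 (6.82%) below all HP1a_KO livers, against 17.5% and 19.2% of all genes. With equal totals the counts were 53 above and 1 below, against 25.9% and 10.8% of all genes. Without HP1a_KO replicate 1 they were 31 and 15, against 26.5% and 29.6%, and with TMM scaling 31 and 3, against 18.4% and 18.3%.

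Taking the 6 livers without HP1α together against WT, with each library weighted equally, the members' median log2 difference was -0.07, against -0.01 over all genes, with 17 higher and 71 lower. limma called 0% of all genes, and DESeq2 called 0.332% (46 genes) and 0 members. At an unadjusted p under 0.05, limma marked 0 members higher and 5 lower, against 3.5% and 2.81% of all genes. Sdhd had the smallest p, at -0.30 (SE 0.08, interval -0.49 to -0.11), with an adjusted p of 0.686 by limma and 0.214 by DESeq2. Cox7a2 (-0.22, interval -0.39 to -0.06), Ndufs1 (-0.21, interval -0.38 to -0.03) and Uqcrfs1 (-0.18, interval -0.35 to -0.02) followed.

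Ndufaf4, an assembly factor of complex I, had 835, 696 and 1101 in HP1ag_KO, 939 in HP1ab_KO and 800 and 860 in HP1a_KO, against 1251, 1185 and 961 in WT. A single HP1ag_KO liver reached into the WT range, and the difference over the 6 livers was -0.38 (SE 0.15, interval -0.73 to -0.03). The higher members were Atp5g1 (0.09), Sdhaf1 (0.09), Ndufa11 (0.08), Ndufa12 (0.08) and Ndufa7 (0.05). In 5 members (5.68%), Ndufb11, Ndufs1, Sdhd, Uqcrc2 and Uqcrfs1, all 6 mutant livers lay below all WT livers, and in 0 members above, against 1.74% and 1.4% of all genes. With TMM scaling 4 members lay below and 0 above, against 1.44% and 1.58%, and with equal totals 2 and 0, against 1.48% and 1.43%.

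**Figure D4:**
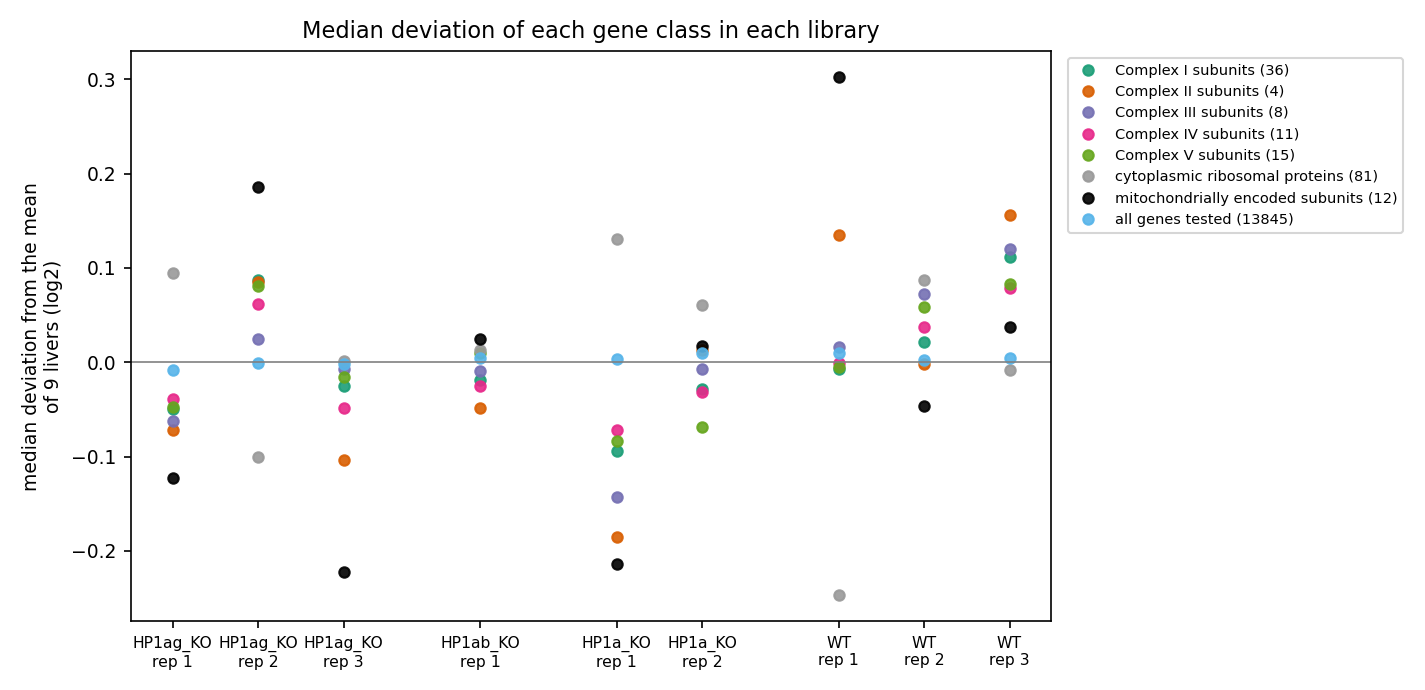
Median deviation from the mean of the 9 livers (log2) of each class of genes in each library, with the number of genes tested in brackets; groups run from HP1ag_KO on the left to WT on the right. The medians of complexes I to V are all below 0 in HP1a_KO replicate 1 and HP1ag_KO replicates 1 and 3, all above 0 in HP1ag_KO replicate 2 and WT replicate 3, and on both sides of 0 in the other 4 libraries.

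Livers of 1 group differed in the members' level. The median deviation of the 88 members from the mean of the 9 livers was -0.05, 0.07 and -0.03 in HP1ag_KO, -0.02 in HP1ab_KO, -0.09 and -0.04 in HP1a_KO, and 0.01, 0.04 and 0.10 in WT, on the log2 scale. HP1ag_KO replicate 2 thus lay in the range of the WT livers, and both HP1a_KO livers lay below it. Ribosomal protein genes (81 tested) had medians of 0.09, -0.10 and 0.00 in HP1ag_KO, 0.01 in HP1ab_KO, 0.13 and 0.06 in HP1a_KO, and -0.25, 0.09 and -0.01 in WT.

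Related gene lists gave the surroundings of the members, with no gene called by limma in any of them. Mitochondrially encoded subunits (12 tested), which join the nuclear ones in the complexes, had a median log2 difference of -0.12 in HP1ag_KO, -0.09 in HP1ab_KO and -0.20 in HP1a_KO, against WT, with 11, 8 and 8 of 12 lower and 1, 4 and 4 higher. These genes spread more between livers than the members, with a median SD within a group of 0.21. mt-Nd3, a complex I subunit, had 21857 and 23748 normalised reads in HP1a_KO, against 28862, 30177 and 33134 in WT, at -0.43 (adjusted p = 0.457 by limma). On the higher side, mt-Nd5, another complex I subunit, had 24430 in HP1ab_KO, against 37256, 10286 and 10551 in WT, at 0.62 (adjusted p = 0.999 by limma), within the WT range. Other assembly factors (30 tested) had medians of -0.11, -0.10 and -0.19 in HP1ag_KO, HP1ab_KO and HP1a_KO, with 28, 20 and 26 of 30 lower. Cox18, a membrane insertase for complex IV, had 182 and 206 in HP1a_KO, against 358, 231 and 247 in WT (-0.50, adjusted p = 0.483 by limma).

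Tricarboxylic acid cycle genes (13 tested) had medians of -0.12, -0.07 and -0.15 in the same order, with 11, 11 and 10 lower. Among them Idh3a, a subunit of the NAD-dependent isocitrate dehydrogenase, had 766, 714 and 938 in HP1ag_KO, against 1022, 1106 and 960 in WT (-0.36, adjusted p = 0.584 by limma). Electron carriers and coenzyme Q genes (16 tested) had medians of -0.07, -0.01 and -0.08. Coq5, a methyltransferase of coenzyme Q synthesis, had 706, 766 and 837 in HP1ag_KO, 689 in HP1ab_KO and 716 and 700 in HP1a_KO, against 943, 863 and 871 in WT. All 6 mutant livers lay below WT in Coq5, with a log2 difference of -0.28 (adjusted p = 0.686 by limma) over the 6. Coq5 was picked for the smallest p of its list, and 1.74% of all genes lay below WT in all 6 livers. Regulators of mitochondrial biogenesis (17 tested) had medians of -0.06, -0.09 and -0.05. Ribosomal protein genes had medians of 0.05, 0.07 and 0.15, with 60, 64 and 78 of 81 higher.

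**Figure D5:**
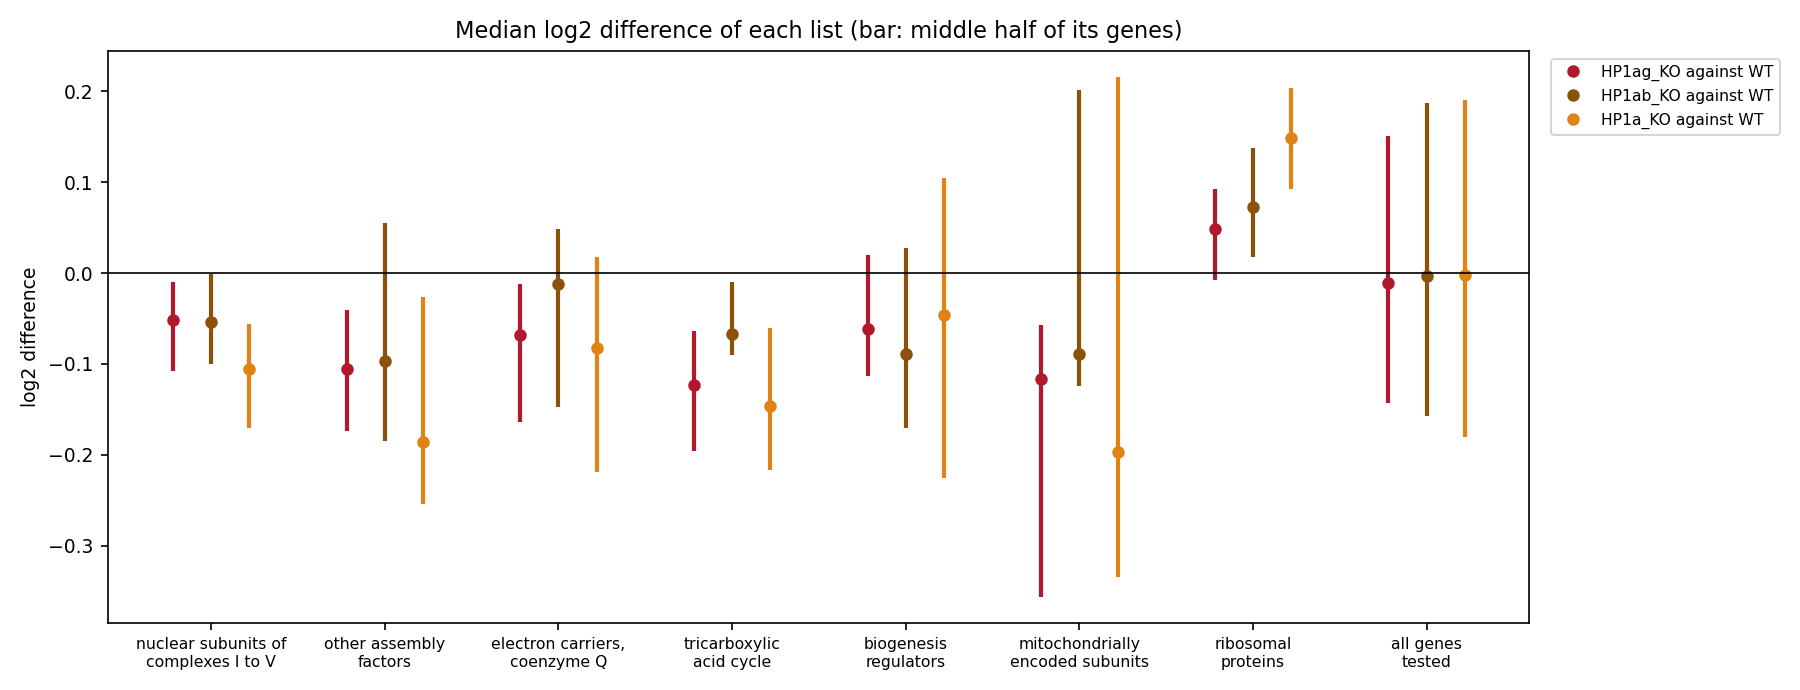
Median log2 difference from WT of the 74 nuclear subunits and of related gene lists (points), with the span between the quartiles of each list's genes (bars), for HP1ag_KO, HP1ab_KO and HP1a_KO. The nuclear subunits have medians of -0.05, -0.05 and -0.11. The medians of the tricarboxylic acid cycle genes lie lower than 0 in all 3 comparisons, and those of ribosomal protein genes lie above 0.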

How the data were processed

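RNA of 9 mouse livers was sequenced from ribosomal RNA-depleted, strand-specific libraries, per the labels' protocols. The deposited table gives a normalised signal per gene, which the authors made from read counts divided by a size factor per library. Per the submitters' processing notes, the tools included HTSeq 0.5.4p3 and DESeq2 1.0.19 alongside TopHat2 2.0.10, with Bowtie2 2.1.0 and CASAVA 1.8.2, on mm10. No source used here gives the annotation release, the filters or the strand setting. Overlapping genes and processed pseudogenes may therefore share reads with members. Whole reads were recovered from the steps of the deposited values, and 100% of the values were whole within 0.1 read.

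The main test was limma 3.58.1 with trend on log2(value + 1), for the 13845 genes averaging at least 10 across all 9 libraries, with all 4 groups in 1 fit and Benjamini-Hochberg adjustment over all of them (called at an adjusted p under 0.05). The fold changes understate those of low genes. edgeR 4.0.16 (quasi-likelihood) and DESeq2 1.42.0 (Wald), in R 4.3.3, were run on the recovered counts as alternatives, as were other pseudocounts, filters, scalings (TMM, equal totals), a fit with no trend and leaving out each library. The fits were also run on simulated counts, with changes in HP1ag_KO larger than the differences of the members. That run does not show how well differences of the members' size are found. Levels per kilobase used the median length of protein-coding transcripts in GENCODE M21. Tables and figures were made with Python 3.11.15, numpy 2.4.6, pandas 2.3.3 and matplotlib 3.10.9. Replicate pairs differed by a chi-square per degree of freedom of 49.0 to 125, and each library was counted once.

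Genes were named by rule: core subunits, the tissue isoforms, the highest and lowest level per kilobase in WT of each complex, the 5 tested members per direction with the smallest p in each comparison, and at most 3 genes of each companion list by smallest p. A single member is counted but not reported here by name. The 4 printed promoters and the few steadiest, widest or non-overlapping members were chosen after their values were seen. The members and lists were chosen with earlier results of these data known. Comparisons share control livers, so their values are not independent of each other.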

Additional observations from a re-analysis of the deposited data

How the results depend on the processing

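Under every alternative run, 0 members were called in each of the 5 comparisons, and 785 of 788 values of named members kept their direction and their side of the threshold. The exceptions reversed: Ndufa6 in HP1ag_KO against WT was -0.0354 when livers with neighbouring animal numbers were paired, and in HP1a_KO against WT without HP1a_KO replicate 1 Atp5g1 was -0.007 and Ndufa12 was -0.04, while without HP1a_KO replicate 2 Atp5g1 was 0.2157 and Ndufa12 was 0.2292. The cause was not tested. The count of 785 is a loose check, since part of it was fixed beforehand. A fit with no trend leaves each difference unchanged, and other pseudocounts hardly moved the members' medians. In the main test no named member was near the threshold (smallest adjusted p 0.156 by limma). By DESeq2, Uqcrq in HP1ag_KO against HP1a_KO was just above it (adjusted p 0.0590). Many members were named for their small p in these data. The members' median was -0.11 for HP1ag_KO against WT in the same pairing (2 pairs, 10 members higher and 78 lower). That fit held only the paired livers, without HP1ag_KO replicate 2 and WT replicate 1. For HP1ag_KO against HP1a_KO the members' median was 0.15 with equal totals. Calls over all genes were 0 in the main test. DESeq2 called 99 for HP1ag_KO against WT, 89 for HP1a_KO against WT, 11 for HP1ab_KO against WT, 459 for HP1ag_KO against HP1a_KO and 46 for the 6 HP1α-null livers against WT. At an unadjusted p under 0.05 limma marked 1050, 1404, 512, 2240 and 874 genes and edgeR 1087, 1341, 524, 2193 and 878 in the same order, and edgeR called 0. A pseudocount of 5 gave 1 call for HP1a_KO against WT, no filter gave 54 for HP1ab_KO against WT, and no trend gave 7 for HP1ag_KO against HP1a_KO. Leaving out 1 library gave 0 to 2 calls for HP1ag_KO against WT (2 without HP1ag_KO replicate 1, 1 without WT replicate 3), 0 to 5 for HP1a_KO against WT (5 without HP1a_KO replicate 2), 0 to 2 for HP1ab_KO against WT (2 without WT replicate 3), 0 to 5 for HP1ag_KO against HP1a_KO (5 without HP1a_KO replicate 2, 3 without HP1ag_KO replicate 1) and 0 to 1 for the HP1α-null livers (1 without WT replicate 3). The members' medians then ranged from -0.09 to -0.03, -0.14 to -0.08, -0.08 to -0.02, 0.02 to 0.09 and -0.10 to -0.05 in the same order. Where 1 HP1a_KO library was left, its spread was taken from the other groups. The labels give no replicate numbers, and those used here follow accession order, so no pairing by number was made and the term for neighbouring animal numbers was the only paired fit. With 1 to 3 livers a group, a p that misses the threshold does not show that a member was alike in both groups.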
